A study of Mus musculus with 12 samples.

Results

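The genes described here are 35 genes of mouse glucose metabolism and of the response to low oxygen, listed by name: 2 glucose carriers, 17 enzymes of glycolysis from hexokinase to pyruvate kinase, counting the makers of the regulator fructose 2,6-bisphosphate, 4 genes of lactate handling, 4 pyruvate dehydrogenase kinases and 8 further targets of hypoxia-inducible factor. Each of the 35 symbols has a gene ID among the 56691 in the count tables, and all 35 passed the filter on low counts. They were measured in R1 cells, a male mouse embryonic stem cell line of 129/Sv background that was kept on gelatin in glucose-containing medium with serum and the cytokine LIF. The day 0 group, which the labels call primed, had no further treatment. The other 3 groups had 6 days of 2i, the usual name for a pair of kinase inhibitors that holds mouse stem cells in the naive state: 2i with no MRE11 inhibitor, 2i with 25 µM of an MRE11 inhibitor, and 2i with 50 µM of it. MRE11 is a nuclease of DNA repair and replication, and the labels do not name the inhibitor. Each of the 4 groups has 3 libraries. Nothing in the labels says that these came from separate cultures, so the p-values rest on the variation among these libraries alone, and that variation may be technical. There is no day 6 group without 2i, so 6 days in culture and 2i cannot be told apart. The sources used here give neither the oxygen level nor whether a vehicle was added.

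Glycolysis splits glucose into pyruvate. Hexokinases trap the sugar in the cell, phosphofructokinase commits it to breakdown, and the later enzymes recover ATP. Pyruvate is either reduced to lactate, which leaves the cell through monocarboxylate carriers, or enters mitochondria as acetyl-CoA through pyruvate dehydrogenase, which the pyruvate dehydrogenase kinases switch off. Hypoxia-inducible factor (HIF) is a transcription factor whose alpha subunit is marked for destruction by oxygen-dependent prolyl hydroxylases, so that at low oxygen it accumulates and raises genes of glucose uptake, glycolysis and lactate export together with genes such as Vegfa and Bnip3. Naive and primed pluripotent cells are known to differ in how much they rely on glycolysis and on respiration.

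The libraries are 3′ mRNA counts of 5894561 to 7060126 per library, and the members took 0.517 to 0.646% of them in primed cells, 0.429 to 0.469% in 2i, 0.424 to 0.468% at 25 µM and 0.377 to 0.454% at 50 µM. Levels below are CPM, counts scaled to a common library total, with a TMM factor that corrects for composition, and values for a group are listed in the order of replicates 1, 2 and 3. Differences, also those given in parentheses after a gene, are log2 fold changes ± their standard error, tested with edgeR's quasi-likelihood test, and a gene is called where its p, adjusted by Benjamini-Hochberg over the 13230 genes tested, is below 0.05. In every group replicate 1 stood apart: over all genes its counts differed from those of the other replicates by a chi-square of 10.1 to 13.5 per degree of freedom, against 2.69 to 7.53 between replicates 2 and 3. All 10 pluripotency markers examined passed the filter, with a summed level of 4213 to 4849 CPM in primed and 4600 to 5233 CPM in the day 6 libraries. Markers of other cell types were mostly lower in summed level at day 6. Fibroblast and feeder markers, of which 4 of 10 passed the filter and Fap was at 0, summed to 32.5 to 74.3 CPM in primed, 12.9 to 17.8 in 2i, 6.73 to 7.79 at 25 µM and 1.93 to 4.52 CPM at 50 µM. Trophoblast markers, of which 4 of 9 passed and Tpbpa was at 0, summed to 247 to 420, 125 to 174, 113 to 147 and 84.6 to 118 CPM in the same order, and primitive endoderm markers, 3 of 8, to 51.6 to 123, 25.0 to 57.3, 14.7 to 18.8 and 12.1 to 16.2 CPM. Neuroectoderm markers, 4 of 7, summed to 107 to 114 CPM in primed and 72.7 to 102 CPM at day 6. The part of these other cells, and of replicate 1, in the results was not tested except where values without replicate 1 are given. In these bulk samples fewer cells of a type and less RNA per cell cannot be told apart.

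Promoters are given first for 2 sets of genes described below, so that matches to the core that HIF binds can be seen in them. HIF binds DNA at a short core, ACGTG or GCGTG, searched here on both strands. Each sequence below is the stretch upstream of the gene's most upstream RefSeq start (GRCm38.p6), at most 250 bases and without annotated exons, written 5′ to 3′ in the direction of the gene, with matches to the core in capitals. First come the targets of HIF that fell at 50 µM of the inhibitor, then the 3 members with the lowest fold changes in 2i. The P4ha2 and Slc16a3 stretches lie inside the gene spans that are given with the levels of these genes. Those spans start further upstream than the RefSeq start used here. These 2 stretches are therefore upstream of that RefSeq start only, and whether it is the start in use in these cells was not tested.
P4ha2, chr11:54100674-54100923, plus strand: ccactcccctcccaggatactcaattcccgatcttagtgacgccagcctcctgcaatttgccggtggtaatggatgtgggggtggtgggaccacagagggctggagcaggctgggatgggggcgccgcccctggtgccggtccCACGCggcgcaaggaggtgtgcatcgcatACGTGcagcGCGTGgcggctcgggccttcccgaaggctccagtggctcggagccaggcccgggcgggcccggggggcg
P4ha1, chr10:59323046-59323295, plus strand: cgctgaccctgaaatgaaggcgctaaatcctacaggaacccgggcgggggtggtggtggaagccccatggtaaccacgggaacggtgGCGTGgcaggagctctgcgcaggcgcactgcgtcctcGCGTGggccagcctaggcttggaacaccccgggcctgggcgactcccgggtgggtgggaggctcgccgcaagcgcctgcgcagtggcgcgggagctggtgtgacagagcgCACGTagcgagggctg
Egln1, chr8:124949325-124949504, minus strand: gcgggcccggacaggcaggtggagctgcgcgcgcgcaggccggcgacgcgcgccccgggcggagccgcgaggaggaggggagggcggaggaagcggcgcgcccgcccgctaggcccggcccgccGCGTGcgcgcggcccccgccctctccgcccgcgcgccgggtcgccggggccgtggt
Bnip3, chr7:138909520-138909756, minus strand: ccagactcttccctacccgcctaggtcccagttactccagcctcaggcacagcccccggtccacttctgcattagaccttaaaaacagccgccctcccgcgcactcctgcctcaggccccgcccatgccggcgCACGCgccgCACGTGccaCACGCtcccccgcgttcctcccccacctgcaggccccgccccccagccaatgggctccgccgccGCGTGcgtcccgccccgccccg
Vegfa, chr17:46032378-46032627, minus strand: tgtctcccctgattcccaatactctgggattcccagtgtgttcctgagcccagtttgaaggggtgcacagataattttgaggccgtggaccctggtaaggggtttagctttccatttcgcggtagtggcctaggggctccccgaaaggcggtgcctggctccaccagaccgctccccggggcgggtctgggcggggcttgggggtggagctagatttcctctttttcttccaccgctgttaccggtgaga
Pdk1, chr2:71872974-71873223, plus strand: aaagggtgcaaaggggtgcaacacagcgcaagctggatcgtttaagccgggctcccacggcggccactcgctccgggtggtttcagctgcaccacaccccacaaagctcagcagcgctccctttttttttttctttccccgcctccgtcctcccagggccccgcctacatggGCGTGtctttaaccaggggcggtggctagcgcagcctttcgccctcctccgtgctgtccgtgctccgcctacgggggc
Slc16a3, chr11:120948817-120949052, plus strand: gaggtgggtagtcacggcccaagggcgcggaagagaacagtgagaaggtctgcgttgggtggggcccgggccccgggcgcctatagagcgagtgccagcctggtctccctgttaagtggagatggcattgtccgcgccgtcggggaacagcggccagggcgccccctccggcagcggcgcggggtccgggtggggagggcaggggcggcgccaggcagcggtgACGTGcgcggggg
Egln3, chr12:54203875-54204124, minus strand: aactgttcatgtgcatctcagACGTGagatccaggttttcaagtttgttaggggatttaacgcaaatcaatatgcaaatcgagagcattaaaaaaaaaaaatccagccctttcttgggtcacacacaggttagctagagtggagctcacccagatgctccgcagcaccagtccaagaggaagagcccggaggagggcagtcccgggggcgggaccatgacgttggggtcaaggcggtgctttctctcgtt
The P4ha2 and P4ha1 stretches hold 3 matches each, the Bnip3 stretch 5, those of Egln1, Pdk1, Slc16a3 and Egln3 1 each, and that of Vegfa none. CACGTG reads as ACGTG on both strands and counts as 2 of the matches. The promoter table has an entry for 33 of the 35 members. Of these, 26 (78.8%) hold at least 1 match in the 250 bases, beside 5621 of 9707 promoters (57.9%) of genes tested here and 10442 of 27025 (38.6%) in the whole table. Of the members' promoters 17 (51.5%) hold 2 or more matches, beside 2790 (28.7%) of genes tested here and 4549 (16.8%) in the whole table. All 4 promoters of the lactate group and all 4 of the pyruvate dehydrogenase kinases hold a match, and 1 of 3 in the aldolase group does. A match describes these letters only, and the window is short. Among the members without a printed sequence, the stretches of Aldoa, Ankrd37, Gapdh, Ldha and Pfkl also lie inside the annotated gene span.

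**Figure D1:**
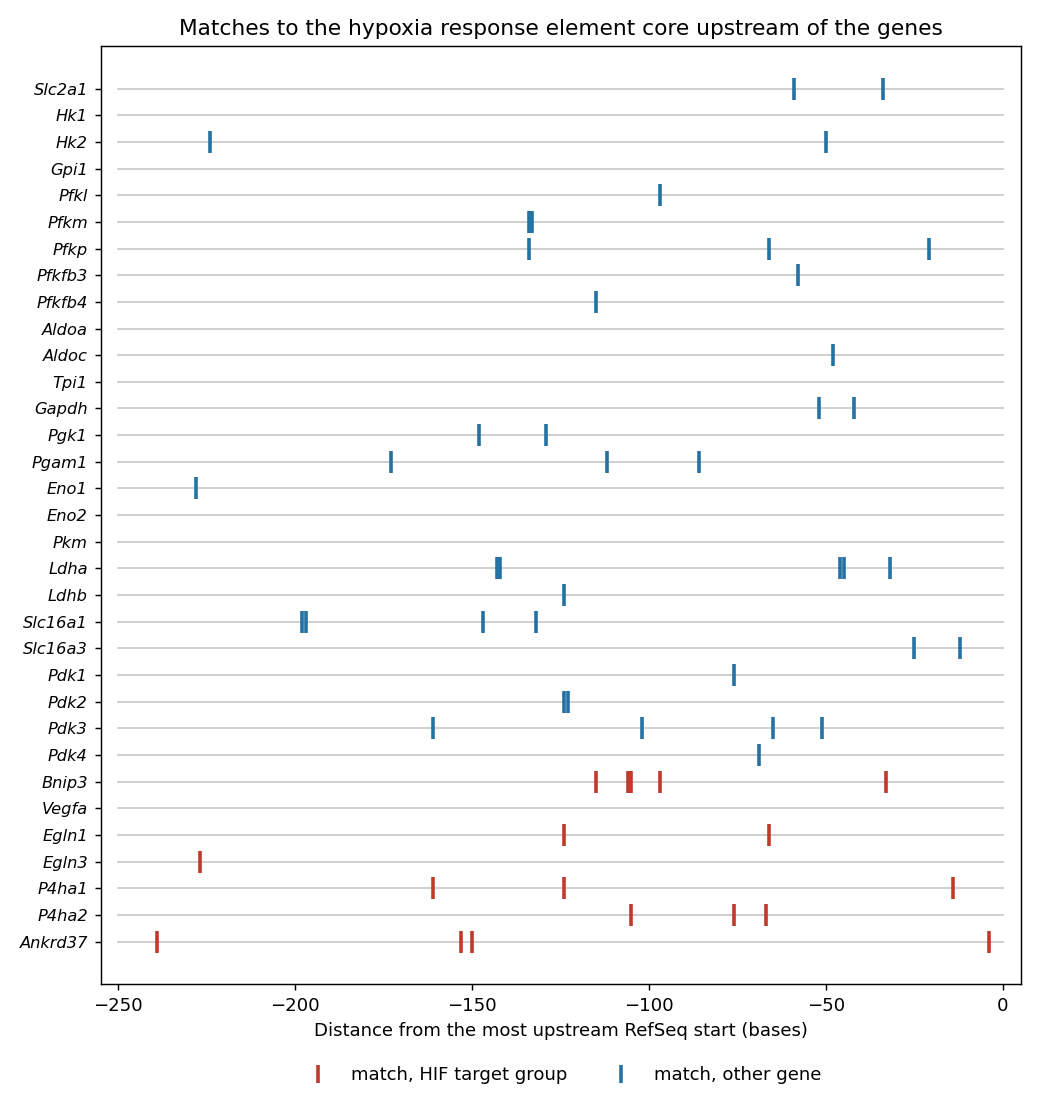
Positions of ACGTG and GCGTG in the 250 bases upstream of the RefSeq start of 33 members, on either strand, 1 row per gene in the order of the pathway, with the distance from the start in bases on the x axis and each mark a match, red for the HIF targets and blue for the other members. Bnip3 and Ldha have 5 matches each, and Vegfa, Hk1, Aldoa, Tpi1, Gpi1, Eno2 and Pkm have none. For P4ha2, Slc16a3, Aldoa, Ankrd37, Gapdh, Ldha and Pfkl the RefSeq start lies inside the annotated gene span.

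Between primed cells and cells after 6 days of 2i, most of the members that changed were lower. Pdk1, the kinase that shuts pyruvate dehydrogenase, was 7.29-fold lower, Slc16a3, a lactate exporter, 4.82-fold lower, the oxygen-sensing hydroxylase Egln3 3.03-fold lower and the glucose carrier Slc2a1 2.61-fold lower. In all, 15 of 35 members (42.9%) were lower in 2i and 5 (14.3%) were higher, beside 20.4% lower and 20.0% higher among all genes tested, and 15 did not pass the test. The median log2 fold change of the members was −0.44 and that of all genes −0.01. The members were chosen with earlier results of these data known, so these shares and medians only describe them. With the replicate number as a block 17 members were lower, beside 24.0% of all genes, the added genes being Pgam1 and Ndrg1. The summed markers of fibroblasts, trophoblast and neuroectoderm given above were lower in 2i as well, and their part was not tested. Of the 4 neuroectoderm markers tested, only 2 had a negative log2 fold change, with a median of −0.16 over the 4.

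The glucose carriers moved in opposite directions. Slc2a1, which encodes the widely expressed carrier GLUT1 (chr4:119108711-119137983, plus strand, GRCm38), read 512, 606 and 596 CPM in primed and 184, 225 and 249 CPM in 2i. No 2i library reached the lowest primed one, and the log2 fold change was −1.38 ± 0.18, adjusted p = 3.38e-05. Slc2a3, the gene of the high-affinity carrier GLUT3 (chr6:122727809-122801640, minus strand), read 526, 622 and 579 CPM in primed and 657, 808 and 819 CPM in 2i. All 3 of its 2i libraries were above all primed ones (0.40 ± 0.10, adjusted p = 0.00237). An antisense gene overlies the 3′ end of Slc2a1, and whether counting used strand is not stated, so its counts may include reads of that gene.

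Hexokinases, which phosphorylate glucose, also differed from each other. Hk1, the broadly expressed form, rose from 37.4 ± 5.87 to 74.1 ± 11.1 CPM (SD, n = 3; 0.99 ± 0.12, adjusted p = 7.83e-07). Hk2, the inducible form and a HIF target, read 356, 393 and 385 CPM in primed and 356, 390.0 and 419 CPM in 2i, with overlapping groups and a log2 fold change of 0.04 ± 0.09, adjusted p = 0.781. Gpi1, which turns glucose 6-phosphate into fructose 6-phosphate, was higher (0.25 ± 0.09, adjusted p = 0.023), a call that was lost without primed replicate 1 (adjusted p = 0.114), primed replicate 3 (adjusted p = 0.0535) or 2i replicate 3 (adjusted p = 0.0565), and without replicate 1 of every group (adjusted p = 0.136).

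Phosphofructokinase subunits and the enzymes up to glyceraldehyde 3-phosphate were mostly lower in 2i. Pfkl, the liver-type subunit of the enzyme that commits sugar to glycolysis (chr10:77986947-78010083, minus strand), read 167, 202 and 165 CPM in primed and 70.9, 75.5 and 63.9 CPM in 2i (−1.34 ± 0.12, adjusted p = 9.09e-09). Its groups were far apart, with each 2i library under the lowest primed one. The platelet-type Pfkp fell by less, from 206 ± 40.1 to 152 ± 3.77 CPM (SD, n = 3; −0.44 ± 0.12, adjusted p = 0.00469), while the muscle-type Pfkm, at 25.9 and 23.4 CPM, did not pass (−0.14 ± 0.14, adjusted p = 0.468). Neither maker of fructose 2,6-bisphosphate, the strongest activator of phosphofructokinase, passed the test, Pfkfb3 with −0.45 ± 0.25, adjusted p = 0.152 and the scarce Pfkfb4, which had 6 to 36 counts per library, with 0.57 ± 0.49, adjusted p = 0.383. The aldolase Aldoa fell from 899 ± 80.0 to 625 ± 6.95 CPM (−0.52 ± 0.08, adjusted p = 2.67e-05) and Tpi1, which interconverts the triose phosphates, from 214 ± 30.1 to 126 ± 2.51 CPM (−0.76 ± 0.10, adjusted p = 2.05e-06). Aldoc, the brain-type aldolase, was at the edge of the threshold (−0.44 ± 0.17, adjusted p = 0.0497), and without primed replicate 2, 2i replicate 1, 2 or 3 its adjusted p was 0.318, 0.133, 0.0855 and 0.0988.

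In the payoff phase, where ATP is recovered, 3 of 6 genes (50%) fell in 2i and 0 rose. Of all genes 20.4% were lower and 20.0% higher. Pkm, pyruvate kinase, was lower (−0.64 ± 0.09, adjusted p = 5.65e-06), Pgk1, phosphoglycerate kinase (−0.79 ± 0.18, adjusted p = 0.00164), and the enolase Eno1 (−0.61 ± 0.14, adjusted p = 0.00232) were so too. Their means in primed and 2i were 420.0 and 269.6 CPM for Pkm, 45.2 and 26.2 CPM for Pgk1, and 126 and 82.7 CPM for Eno1. Gapdh, often taken as a reference gene, did not pass (−0.11 ± 0.18, adjusted p = 0.667). Pgam1, phosphoglycerate mutase, did not pass (−0.58 ± 0.31, adjusted p = 0.152) but did with the replicate block (adjusted p = 0.00574) and without primed replicate 3 (adjusted p = 0.049), and the neuronal enolase Eno2, at 3.76 CPM in primed, did not (−0.55 ± 0.29, adjusted p = 0.131). The 3′ ends of 9 members, Gpi1, Aldoa, Tpi1, Gapdh, Eno1, Pkm, Ldha, Ldhb and Bnip3, share at least 100 bases at 95% identity or more with another annotated gene, Gapdh with 110 of them, so how reads were divided leaves their levels uncertain. An antisense gene also overlies the 3′ ends of Pfkp, Tpi1, Gapdh and Ankrd37.

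**Figure D2:**
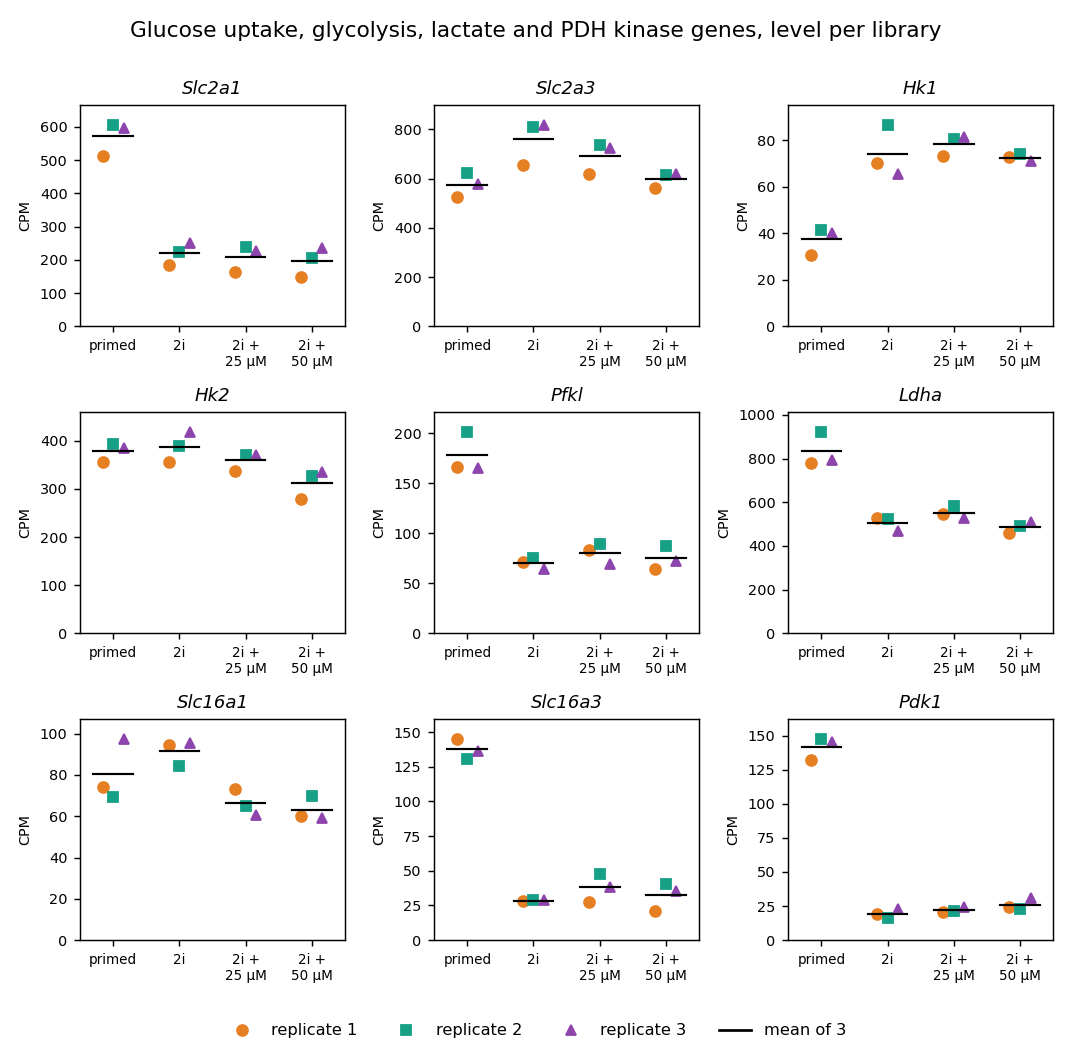
Level in CPM, on an axis that starts at 0, of 9 members of glucose uptake, glycolysis, lactate handling and the pyruvate dehydrogenase kinases in each library, 1 panel per gene, with a marker for each of the 3 replicates of primed, 2i, 2i with 25 µM and 2i with 50 µM and a line for the group mean. Slc2a1, Pfkl, Slc16a3 and Pdk1 drop from primed to 2i and stay low in all day 6 groups.

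At the lactate step, Ldha, the lactate dehydrogenase subunit favoured in glycolytic cells, fell from 832 ± 78.3 to 507 ± 32.3 CPM (−0.72 ± 0.09, adjusted p = 1.04e-06), while Ldhb, the heart-type subunit, was at 108 ± 8.07 and 109.6 ± 10.4 CPM (0.02 ± 0.11, adjusted p = 0.883). The lactate exporter Slc16a3, also called MCT4 (chr11:120948480-120960868, plus strand), read 145, 131 and 136 CPM in primed and 28.0, 28.6 and 29.0 CPM in 2i. The 2i libraries lay close together and far below the primed ones (−2.27 ± 0.20, adjusted p = 4.22e-07). Slc16a1, or MCT1, a carrier that moves lactate and pyruvate in either direction, read 74.2, 69.2 and 97.5 CPM in primed and 94.6, 84.5 and 95.5 CPM in 2i, with overlapping groups (0.19 ± 0.12, adjusted p = 0.218). It was called higher without primed replicate 3 (adjusted p = 0.0213).

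Pdk1, a HIF target whose kinase inactivates pyruvate dehydrogenase (chr2:71873224-71903858, plus strand), had the largest fall of all members. It read 132, 148 and 145 CPM in primed and 19.4, 16.3 and 22.7 CPM in 2i (−2.87 ± 0.13, adjusted p = 2.4e-13), with a wide gap between the groups. Of the other kinases of this enzyme, Pdk3 was lower (−0.33 ± 0.12, adjusted p = 0.0298), which did not pass without primed replicate 2 (adjusted p = 0.0599), primed replicate 3 (adjusted p = 0.114), 2i replicate 1 (adjusted p = 0.159) or 2i replicate 3 (adjusted p = 0.0663). Pdk2 and Pdk4 were scarce, with 6 to 20 and 7 to 29 counts per library, and did not pass. Without primed replicate 1, Pdk4 was called lower (adjusted p = 0.0186).

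In 2i, 2 of the 8 remaining HIF targets fell (25%), 2 rose (25%) and 4 did not pass. These shares are near the 20.4% lower and 20.0% higher of all genes. Bnip3, which promotes the removal of mitochondria (chr7:138890836-138909519, minus strand), read 48.0, 70.2 and 60.9 CPM in primed and 20.4, 24.7 and 24.6 CPM in 2i (−1.36 ± 0.19, adjusted p = 1.5e-05). Egln3, one of the oxygen-sensing prolyl hydroxylases (chr12:54178981-54203860, minus strand), read 24.0, 41.9 and 42.4 CPM in primed and 9.19, 11.02 and 15.6 CPM in 2i (−1.60 ± 0.30, adjusted p = 0.000878). For both genes every 2i library was below every primed one. Egln1, the main oxygen-sensing hydroxylase, instead rose from 23.2, 25.5 and 29.7 CPM in primed to 40.6, 49.8 and 44.4 CPM in 2i (0.78 ± 0.13, adjusted p = 3.64e-05), and P4ha1, a subunit of the collagen prolyl hydroxylase, from 19.1, 20.1 and 21.9 CPM to 29.5, 31.0 and 28.8 CPM (0.55 ± 0.14, adjusted p = 0.00345). Neither pair of groups overlapped. Vegfa, the blood vessel growth factor (0.32 ± 0.24, adjusted p = 0.309), P4ha2, the second collagen hydroxylase subunit (−0.39 ± 0.25, adjusted p = 0.222), Ndrg1, a stress-responsive gene (−0.32 ± 0.23, adjusted p = 0.289, with the block adjusted p = 0.048), and Ankrd37, an ankyrin repeat protein (−0.05 ± 0.21, adjusted p = 0.867), did not pass.

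**Figure D3:**
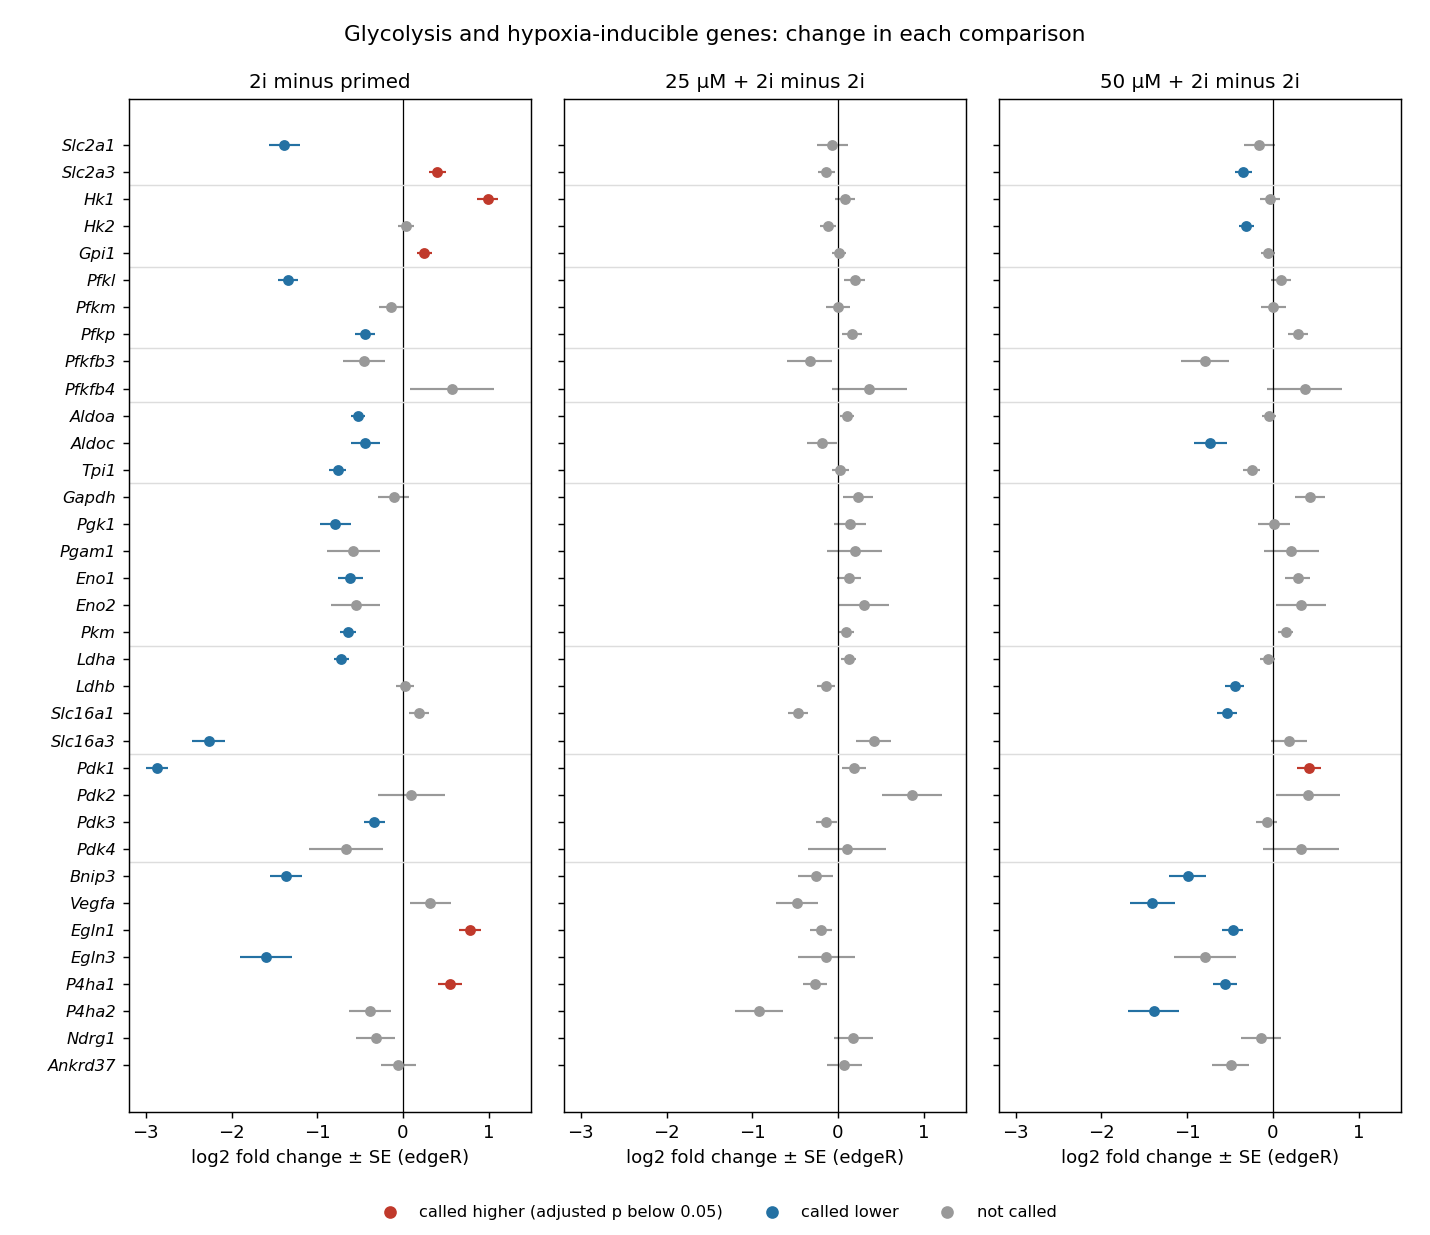
Log2 fold change with its standard error for the 35 members, grouped by role, in 2i against primed, 25 µM against 2i and 50 µM against 2i, on the same x axis, with red points for genes called higher and blue for genes called lower at an edgeR adjusted p below 0.05, and grey for the rest. In 2i 15 members are lower and 5 higher, at 25 µM none is called, and at 50 µM 10 are lower and 1 higher.

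Adding the inhibitor at 50 µM lowered 5 of the 8 HIF targets and 5 of the 23 genes of glucose uptake, glycolysis and lactate handling. The falls were largest in Vegfa, at 2.66-fold, P4ha2, at 2.62-fold, and Bnip3, at 1.99-fold. P4ha2 was scarce, with 10 to 63 counts per library, and Vegfa had 20 to 145, so the size of their falls is uncertain. Of the 35 members 10 (28.6%) were lower and 1 (2.86%) was higher than in 2i alone, beside 8.07% lower and 7.01% higher among all genes tested. Here too the members were chosen with earlier results known, and the shares only describe them. The median log2 fold change was −0.06 for the members and 0.01 for all genes, and −0.67 for the 8 HIF targets, each of which had a negative value. All 10 genes that fell did so in 3 of 3 pairs of libraries with the same replicate number. This adds nothing to the calls, since the 2i and 50 µM ranges of these genes, given below, did not overlap. Scaling by library totals alone gave 559 higher and 1294 lower among all genes in place of 927 and 1067, and 0 higher and 11 lower among the members. The number of members called was 5 without 50 µM replicate 1 and 7 without 2i replicate 2, and 11 without replicate 1 of every group. In that last fit Pdk1 and P4ha1 were lost, while Egln3, lower, and Pfkp, higher (adjusted p = 0.0122), were called. The summed fibroblast, trophoblast and primitive endoderm markers given above were also lower at 50 µM, and their part was not tested. Of 29 other HIF-inducible genes, described further below, 2 (6.90%) were lower at 50 µM and 1 was higher, beside 8.07% and 7.01% of all genes.

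Vegfa (chr17:46016993-46032369, minus strand) read 18.4, 21.3 and 15.0 CPM in 2i, 12.8, 16.1 and 10.6 CPM at 25 µM and 3.52, 10.4 and 6.30 CPM at 50 µM. Every 50 µM library was below every 2i library (−1.41 ± 0.26, adjusted p = 0.00164), the call held in each of the 6 fits that left out a library, and without replicate 1 of every group the adjusted p was 0.00358. In primed cells the gene stood at 16.4, 15.2 and 12.1 CPM, a range that overlapped its 2i range, and its lowest values in the series were those at 50 µM.

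Both collagen prolyl hydroxylase subunits fell at 50 µM. P4ha2 (chr11:54100095-54131665, plus strand) read 6.58, 8.23 and 5.47 CPM in 2i, 2.50, 4.54 and 3.68 at 25 µM and 1.76, 2.53 and 3.39 CPM at 50 µM (−1.39 ± 0.29, adjusted p = 0.00282). Its 2i libraries lay above those of both doses, and the 50 µM call held in all 6 fits without a library. P4ha1 (chr10:59323296-59373304, plus strand) read 29.5, 31.0 and 28.8 CPM in 2i, 24.1, 28.6 and 21.7 at 25 µM and 16.5, 19.9 and 24.2 CPM at 50 µM (−0.56 ± 0.14, adjusted p = 0.0109). The 50 µM libraries did not reach the 2i ones, but the call was lost without 50 µM replicate 1 (adjusted p = 0.0531) and without replicate 1 of every group (adjusted p = 0.0504).

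Bnip3, already lower in 2i than in primed, read 20.4, 24.7 and 24.6 CPM in 2i, 15.5, 25.8 and 17.1 at 25 µM and 8.09, 14.0 and 12.6 CPM at 50 µM. The 2i and 50 µM groups did not overlap (−0.99 ± 0.22, adjusted p = 0.00556), and the call held in all 6 fits without a library. The hydroxylase Egln1 read 40.6, 49.8 and 44.4 CPM in 2i, 35.2, 42.2 and 40.2 at 25 µM and 28.5, 32.3 and 36.5 CPM at 50 µM (−0.47 ± 0.13, adjusted p = 0.0144), without overlap between 2i and 50 µM. Its call was lost without 2i replicate 2 (adjusted p = 0.0842) and without 50 µM replicate 1 (adjusted p = 0.0609).

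The other hydroxylase, Egln3, read 9.19, 11.02 and 15.6 CPM in 2i, 6.73, 11.04 and 14.6 at 25 µM and 4.22, 8.93 and 7.27 CPM at 50 µM and did not pass (−0.79 ± 0.36, adjusted p = 0.168), but it passed with the replicate block (adjusted p = 0.00123) and without replicate 1 of every group (adjusted p = 0.0238). Ankrd37 read 27.3, 28.1 and 33.1 CPM in 2i and 14.2, 19.2 and 29.2 CPM at 50 µM, with overlap (−0.49 ± 0.21, adjusted p = 0.139), and passed with the block (adjusted p = 0.00427). Ndrg1 read 18.7, 22.8 and 22.5 CPM in 2i and 11.8, 21.4 and 24.7 CPM at 50 µM and did not pass (−0.14 ± 0.23, adjusted p = 0.743). With the block 7 of the 8 HIF targets, and 14 of the 35 members, were lower, beside 12.4% of all genes, and 2 members were higher, beside 12.1%.

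**Figure D4:**
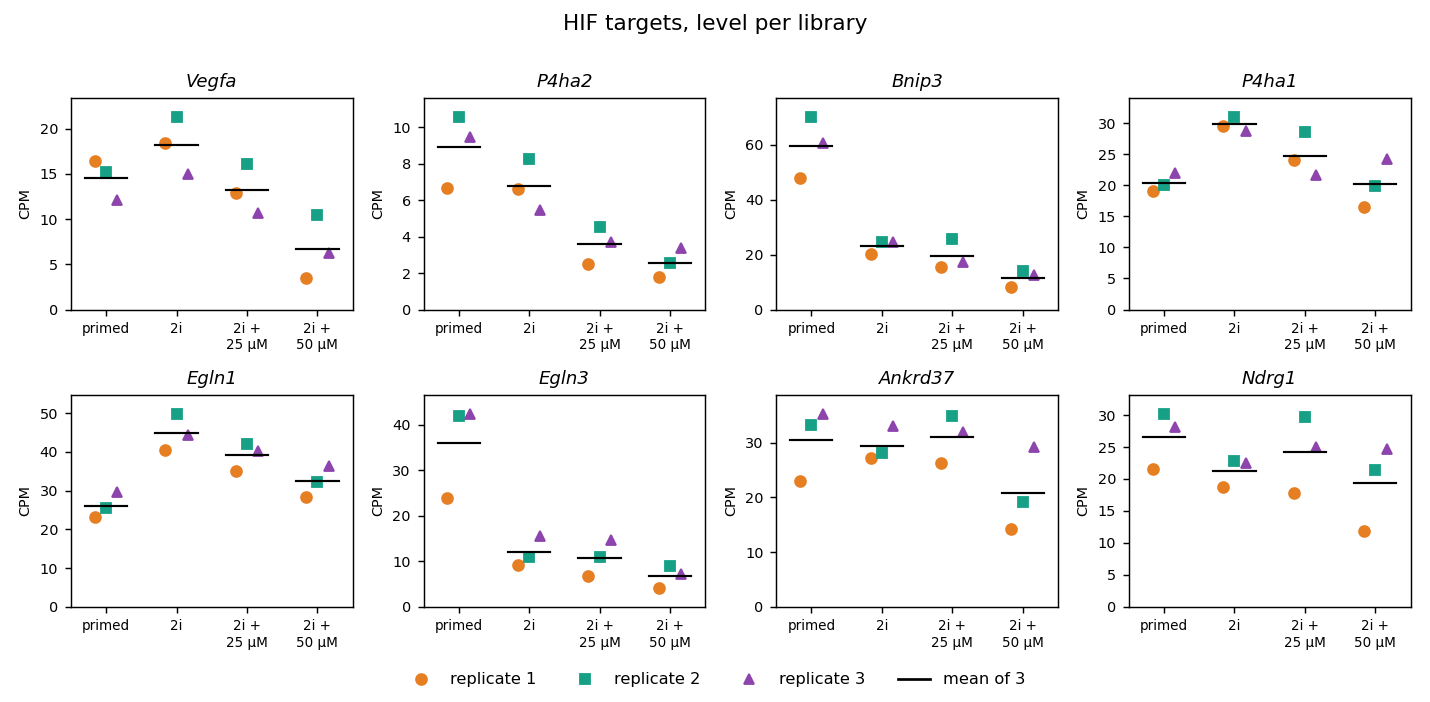
Level in CPM, on an axis that starts at 0, of the 8 HIF targets in each library, 1 panel per gene, with a different marker for replicates 1, 2 and 3 of primed, 2i, 2i with 25 µM and 2i with 50 µM and a line for the group mean. Vegfa, P4ha2 and Bnip3 are lowest at 50 µM, and replicate 1 is the lowest of its group in 26 of the 32 gene and group pairs.

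Replicate 1 was the lowest library of its group in 26 of 32 pairs of a HIF target and a group (81.2%), in 80 of 140 such pairs (57.1%) over all members and in 37.0% of pairs over all genes tested. By group it was the lowest for 7 of the 8 targets in primed, 5 in 2i, 6 at 25 µM and 8 at 50 µM. Egln3 in primed read 24.0, 41.9 and 42.4 CPM, whereas Vegfa in primed, with 16.4, 15.2 and 12.1 CPM, was highest in replicate 1. What this reflects was not tested.

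Among the genes of glucose uptake and glycolysis, 50 µM lowered Slc2a3, Hk2 and Aldoc. Slc2a3 read 657, 808 and 819 CPM in 2i, 620.2, 737 and 725 at 25 µM and 561, 616 and 619 CPM at 50 µM (−0.35 ± 0.10, adjusted p = 0.0217), and all 3 of its 50 µM libraries were below the 2i ones. Hk2 read 356, 390.0 and 419 CPM in 2i, 337, 371 and 371 at 25 µM and 279, 326 and 335 CPM at 50 µM (−0.31 ± 0.09, adjusted p = 0.0255). Aldoc read 20.5, 22.5 and 21.9 CPM in 2i, 14.2, 20.9 and 21.8 at 25 µM and 10.02, 15.5 and 13.4 CPM at 50 µM (−0.73 ± 0.19, adjusted p = 0.0127). The groups of 2i and 50 µM did not overlap for Hk2 and Aldoc either. For Slc2a3 the adjusted p was 0.0977, 0.111 and 0.0712 without 2i replicate 2, 2i replicate 3 and 50 µM replicate 1, and for Hk2 0.0735, 0.136 and 0.103. Aldoc did not pass without 50 µM replicate 1 (adjusted p = 0.0571).

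Both lactate genes that did not pass in 2i were lower at 50 µM. The carrier Slc16a1 (chr3:104638668-104658462, plus strand) read 94.6, 84.5 and 95.5 CPM in 2i, 73.2, 64.9 and 60.3 at 25 µM and 60.3, 69.6 and 59.3 CPM at 50 µM. Every library with inhibitor, at either dose, was below every 2i library, and the 50 µM call (−0.54 ± 0.12, adjusted p = 0.004) held in all 6 fits without a library. Ldhb read 122, 103 and 104 CPM in 2i, 114, 89.3 and 95.6 at 25 µM and 90.9, 70.8 and 80.3 CPM at 50 µM (−0.44 ± 0.11, adjusted p = 0.00931). Its 2i and 50 µM libraries did not overlap, and the call was lost without 50 µM replicate 2 (adjusted p = 0.06). The exporter Slc16a3, at 21.1, 40.5 and 35.4 CPM, did not pass (0.19 ± 0.21, adjusted p = 0.599), nor did Ldha at 457, 489 and 511 CPM (−0.06 ± 0.09, adjusted p = 0.681).

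Of the members outside the HIF group with the largest falls in 2i, Slc16a3, Slc2a1 and Pfkl did not pass at 50 µM. Slc2a1, the glucose carrier, read 163, 240.0 and 226 CPM at 25 µM and 148, 206 and 236 CPM at 50 µM (−0.16 ± 0.18, adjusted p = 0.605 against 2i). Pfkl read 83.1, 88.8 and 69.3 CPM at 25 µM and 64.2, 87.5 and 72.7 CPM at 50 µM (0.09 ± 0.12, adjusted p = 0.645). Pdk1 was the single member called higher at 50 µM, with 19.4, 16.3 and 22.7 CPM in 2i, 20.5, 21.4 and 24.4 at 25 µM and 24.4, 22.6 and 31.0 CPM at 50 µM (0.42 ± 0.14, adjusted p = 0.0465). Its groups overlapped, and the adjusted p was 0.113 without 2i replicate 1, 0.224 without 2i replicate 2, 0.0826 without 50 µM replicate 1 and 0.309 without 50 µM replicate 3. It was also not called with DESeq2 (adjusted p = 0.068), limma voom (0.0678), RLE scaling (0.058), library totals (0.11), a fit of the 2 groups alone (0.0889) or without replicate 1 of every group (0.0852), and was called with no low-count filter and with the replicate block (adjusted p = 0.00883).

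None of the 6 payoff genes passed at 50 µM, beside 7.01% higher and 8.07% lower of all genes. Gapdh stood at 0.43 ± 0.18, adjusted p = 0.125, Eno1 at 0.29 ± 0.14, adjusted p = 0.192 and Pkm at 0.15 ± 0.09, adjusted p = 0.282. Gapdh was called higher without 50 µM replicate 2 (adjusted p = 0.0257), the lowest of its 50 µM libraries, which read 567, 456 and 755 CPM. A further 3 genes of the upper part of the pathway passed with the replicate block: Pfkp, higher (0.29 ± 0.12, adjusted p = 0.1; block adjusted p = 0.0131), and Pfkfb3 (−0.79 ± 0.27, adjusted p = 0.057; block adjusted p = 0.00946) and Tpi1 (−0.25 ± 0.10, adjusted p = 0.103; block adjusted p = 0.0175), lower. Tpi1 also passed without 50 µM replicate 3 (adjusted p = 0.0432), and Ankrd37 did so as well (adjusted p = 0.00807).

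Egln1, P4ha1 and Slc2a3 each rose in 2i and were lower again at 50 µM. P4ha1 stood at 20.4 ± 1.44 CPM in primed, 29.8 ± 1.12 in 2i and 20.2 ± 3.86 CPM at 50 µM (SD, n = 3), Egln1 at 26.1 ± 3.26, 44.9 ± 4.63 and 32.4 ± 4.01 CPM, and Slc2a3 at 576 ± 48.3, 761 ± 90.3 and 599 ± 32.7 CPM. For each of these genes the ranges of the primed and 50 µM libraries overlapped, and 50 µM was not tested against primed. Both comparisons use the same 2i libraries and are not independent. Hk1, which also rose in 2i, remained at 72.8, 74.0 and 70.9 CPM at 50 µM (−0.03 ± 0.11, adjusted p = 0.879).

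At 25 µM none of the 35 members passed edgeR's test against 2i, beside 0.454% of all genes called higher and 0.484% called lower. At an unadjusted p under 0.05, 1 member was higher and 2 were lower, beside 6.70% and 6.36% of all genes, and DESeq2 called 1 lower and limma voom 0. The member nearest to the threshold was the carrier Slc16a1 (−0.47 ± 0.12, adjusted p = 0.0591), which DESeq2 called lower (adjusted p = 0.0305). With the replicate block 2 members were lower, beside 2.26% of all genes: Slc16a1 (adjusted p = 0.0126) and P4ha2 (−0.92 ± 0.28 without the block, adjusted p = 0.134, and adjusted p = 0.0218 with it). Without replicate 1 of every group, the exporter Slc16a3 was called higher (adjusted p = 0.0261), its values at 25 µM being 27.9, 48.0 and 38.5 CPM. By library totals alone the split of all genes called was 36 higher and 77 lower, in place of 60 and 64.

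Between the doses, edgeR also called none of the 35 members, beside 0.181% of all genes higher and 0.975% lower at 50 µM. At an unadjusted p under 0.05, 0 members were higher and 10 lower at 50 µM, beside 4.68% and 7.37% of all genes, and DESeq2 called 2 lower and limma voom 0. The median log2 fold change of the 8 HIF targets was −0.52, all 8 being negative. Bnip3 (−0.74 ± 0.22, adjusted p = 0.144) and Vegfa (−0.93 ± 0.27, adjusted p = 0.128) were the genes that DESeq2 called (adjusted p = 0.0426 and 0.0359). With the block 8 members were lower, beside 2.83% of all genes: Bnip3 (adjusted p = 0.00101), Vegfa (adjusted p = 0.00382), Ankrd37 (adjusted p = 0.00582), Aldoc (adjusted p = 0.0269), Tpi1 (adjusted p = 0.0344), Egln3 (adjusted p = 0.035), Ldhb (adjusted p = 0.0408) and Slc2a3 (adjusted p = 0.0464). Vegfa was called without 50 µM replicate 2 (adjusted p = 0.0157), Ankrd37 without 50 µM replicate 3 (adjusted p = 0.0315) and Bnip3 without replicate 1 of every group (adjusted p = 0.0439).

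The mean level fell in both steps, from 2i to 25 µM and from 25 to 50 µM, for 13 of the 35 members and for 26.8% of all genes tested. Among them were 6 of the 8 HIF targets and both glucose carriers. Of the members 10 rose in both steps, 5 of them among the 6 payoff genes, beside 29.1% of all genes, and 0 payoff genes fell in both. This is an order of means, the difference between these groups of genes was not tested, and no payoff gene passed the test between the doses.

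The rest of the pathway was read from lists of genes that are not members. These lists were also chosen with earlier results of these data known, so their shares are descriptions. Of 16 regulators of HIF that were tested, 5 were higher and 4 lower in 2i, beside the 20.0% higher and 20.4% lower of all genes. The higher ones were 8 with the replicate block, beside 23.5% of all genes, and 2 without replicate 1 of every group. Vhl, the ubiquitin ligase subunit that marks HIF for destruction, rose from 24.7 ± 1.78 to 45.2 ± 5.96 CPM (0.87 ± 0.13, adjusted p = 1.27e-05). Cited2, which competes with HIF for a coactivator (−0.89 ± 0.15, adjusted p = 6.68e-05), and Epas1, the HIF-2 alpha subunit (−0.65 ± 0.16, adjusted p = 0.00214), fell, as did the scarce Hif3a (−1.62 ± 0.44, adjusted p = 0.00541), whose call was lost without primed replicate 3 (adjusted p = 0.0516). Hif1a, the HIF-1 alpha subunit, named here after its values were seen, had means of 64.3, 57.6, 52.1 and 50.9 CPM in primed, 2i, 25 µM and 50 µM and did not pass in any of the 4 comparisons, −0.16 ± 0.09, adjusted p = 0.186 in 2i and −0.18 ± 0.10, adjusted p = 0.224 at 50 µM. HIF is controlled mainly at the protein level, which was not measured.

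At 50 µM 3 of these 16 regulators were higher and 2 lower than in 2i, beside 7.01% and 8.07% of all genes. Rbx1 (0.46 ± 0.09, adjusted p = 0.00113) rose and Eloc (−0.42 ± 0.09, adjusted p = 0.00439) fell, both parts of the ligase that holds VHL. Siah2, a ligase that degrades prolyl hydroxylases, fell (−0.85 ± 0.19, adjusted p = 0.00479), and the hydroxylase Egln2 rose (0.44 ± 0.13, adjusted p = 0.0242), with an adjusted p of 0.0105 to 0.182 over the 6 fits that left out a library, the call being lost without 2i replicate 2, 50 µM replicate 1 or 50 µM replicate 3.

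The wider list of HIF-inducible genes, 29 tested of 34, had 13 lower (44.8%) and 3 higher (10.3%) in 2i, beside 20.4% and 20.0% of all genes. With the block 5 were higher, beside 23.5% of all genes. Anxa2, a membrane-binding protein, fell (−1.66 ± 0.13, adjusted p = 1.13e-09), as did the Notch effector Rbpj (−0.99 ± 0.10, adjusted p = 2.68e-08), while Ak4, a mitochondrial adenylate kinase, rose from 111 ± 6.93 to 406 ± 24.2 CPM (1.88 ± 0.10, adjusted p = 1.89e-12). At 50 µM 2 of the 29 (6.90%) were lower and 1 was higher, a share of lower genes near that of all genes, 8.07%. With the block 5 were lower and 2 higher, beside 12.4% and 12.1% of all genes. The higher gene was Kdm3a, a histone demethylase (0.33 ± 0.09, adjusted p = 0.0156; 0.0132 to 0.084 over the 6 fits without a library, lost without 2i replicate 3, 50 µM replicate 1 or 50 µM replicate 3). Among the genes that fell was Ddit4, an inhibitor of mTORC1 that low oxygen and other stresses raise. Ddit4 read 157, 158 and 137 CPM in primed, 88.0, 91.7 and 87.3 in 2i, 68.7, 54.7 and 75.2 at 25 µM and 35.3, 43.5 and 35.9 CPM at 50 µM. No library of a later group in this order reached a library of an earlier one. It fell in 2i (−0.76 ± 0.11, adjusted p = 6.57e-06), again at 50 µM (−1.22 ± 0.12, adjusted p = 6.16e-07) and between the doses (−0.79 ± 0.12, adjusted p = 0.000932). At 25 µM against 2i it did not pass (−0.43 ± 0.11, adjusted p = 0.0726). There it was lower in 3 of 3 pairs, as its separate ranges require. It was called there with the block (adjusted p = 0.0112), with DESeq2 and with no low-count filter, and in 0 of the 5 other settings. Between the doses 2 genes of this list were lower, Ddit4 and Ak4, beside 0.975% of all genes. With the block 4 of the list were lower, beside 2.83% of all genes. At 25 µM against 2i none of this list or of the regulators was called, and with the block 3 and 2 were higher and 1 of each was lower, beside 2.48% and 2.26% of all genes.

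Pyruvate entry into mitochondria, 13 genes tested of 14, had 3 higher (23.1%) and 4 lower (30.8%) in 2i, beside 20.0% and 20.4% of all genes. The list also holds Emb, which serves the monocarboxylate carriers and not the mitochondrial step, so its counts are wider than its name. Pdp2, a phosphatase that switches pyruvate dehydrogenase on, opposite to Pdk1, read 53.3, 57.6 and 47.1 CPM in primed and 164, 183 and 179 CPM in 2i (1.73 ± 0.11, adjusted p = 5.48e-11). It was 107, 126 and 141 CPM at 25 µM and 70.3, 88.5 and 76.1 CPM at 50 µM, so its libraries formed separate ranges in 2i and at each dose. Pdp2 fell at 25 µM (−0.49 ± 0.11, adjusted p = 0.0292), a call kept only without 2i replicate 1 or 25 µM replicate 3 (adjusted p 0.0206 to 0.125 over the 6 fits without a library), at 50 µM (−1.16 ± 0.11, adjusted p = 5.46e-07) and between the doses (−0.67 ± 0.11, adjusted p = 0.00241). Mpc2, a subunit of the mitochondrial pyruvate carrier (0.60 ± 0.12, adjusted p = 0.000239), and Pdha1, a catalytic subunit of pyruvate dehydrogenase (0.42 ± 0.09, adjusted p = 0.000497), rose in 2i, and Emb, a chaperone of monocarboxylate carriers, fell (−2.57 ± 0.12, adjusted p = 3.48e-13). At 50 µM with the block, 4 of the 13 were lower than in 2i and 1 was higher, beside 12.4% and 12.1% of all genes. In the main fit 3 (23.1%) were lower, beside 8.07% of all genes, and 0 were higher. The lower genes were Pdp2, Emb (−0.67 ± 0.14, adjusted p = 0.00227) and Pdhx, which anchors a subunit of pyruvate dehydrogenase (−0.33 ± 0.10, adjusted p = 0.0266; 0.0168 to 0.126 over the 6 fits, lost without 2i replicate 3 or 50 µM replicate 2).

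Among the other glycolysis enzymes and glucose carriers, 22 tested of 39, 3 were higher (13.6%) and 6 lower (27.3%) in 2i, beside 20.0% and 20.4% of all genes. Fbp2, a fructose bisphosphatase that works against phosphofructokinase, read 6.20, 4.69 and 4.35 CPM in primed and 22.8, 30.4 and 35.1 CPM in 2i (2.53 ± 0.27, adjusted p = 9.61e-07), without overlap. Tigar, which lowers fructose 2,6-bisphosphate (0.88 ± 0.09, adjusted p = 6.12e-08), and Pgm2 (0.86 ± 0.13, adjusted p = 2.15e-05) also rose, and the muscle enolase Eno3 fell (−1.60 ± 0.23, adjusted p = 6.65e-06). At 50 µM 5 of the 22 (22.7%) were lower than in 2i, beside 8.07% of all genes, and 0 were higher. With the block 6 were lower and 1 was higher, beside 12.4% and 12.1% of all genes. Without replicate 1 of every group 3 were lower, beside 1060 of 13287 genes. Fbp2 read 7.38, 13.7 and 11.5 CPM there, below all 2i libraries (−1.43 ± 0.24, adjusted p = 0.000848), and Tigar (−0.30 ± 0.09, adjusted p = 0.0255), Pgm1 (−0.68 ± 0.18, adjusted p = 0.013) and the glucose carrier Slc2a8 (−0.68 ± 0.19, adjusted p = 0.0197) were lower. Their adjusted p over the 6 fits without a library was 0.00796 to 0.109 for Tigar, 0.00928 to 0.0975 for Pgm1 and 0.0197 to 0.0898 for Slc2a8. Pgm1 and Slc2a8 did not pass without 2i replicate 2 or 50 µM replicate 1, and Tigar passed only without 2i replicate 1 or 50 µM replicate 1.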

How the data were processed

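Poly(A) RNA of R1 cells was read from the 3′ end (QuantSeq forward kit) in 12 libraries, 3 in each of the 4 groups of the labels. The deposited values are raw read counts per gene, which the authors made with FastQC, STAR and DESeq2 1.32.0 on GRCm38, per the submitters' processing notes; the sources used here do not give the settings, strand option or annotation release. Of the 56805 features, 114 spike-in features with 2 counts in all were left out. Symbols came from GENCODE M21, which names 52073 of the 56691 IDs. The symbol Aldoa has a second, nearly silent ID that failed the filter.

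From these counts, edgeR 4.0.16 (R 4.3.3) filtered by filterByExpr, scaled by TMM and fitted 1 quasi-likelihood model with 4 group means, leaving 13230 genes. P-values were adjusted over all of them by Benjamini-Hochberg, and genes below 0.05 were called, whatever the size of the change. The standard error is the absolute log2 fold change divided by the square root of the test's F. Alternatives were DESeq2 1.42.0, limma voom 3.58.1, RLE or library-total scaling, no filter, a fit of 2 groups, a replicate block, and leaving out each library; leaving out replicate 1 of every group was chosen after the data were seen. The script was tested on simulated counts with the same spread for every gene and no replicate effect. Replicate 1 stood apart in these libraries, so that test does not show how the fit deals with it. Same-numbered libraries deviated together from their group means (r of 0.166 to 0.529 for 12 pairs, against −0.388 to 0.121 for 24 others). The labels do not state a pairing. The main fit leaves the replicate number out, and the block is its alternative.

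Members and lists were chosen with earlier results of these data known. Library values are given for members called among the day 6 groups or called in 2i with a log2 change of 1 or more in size; from each other list up to 4 called genes with the smallest p are named. The planned comparison of protein sequences was not made, as no protein table was used here. A table of the whole series, with the same counts, was not used. 1 gene of a pathway list is not reported here by name. Totals of 5894561 to 7060126 counts limit genes of a few counts, such as Pfkfb4, Pdk2 and Pdk4.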

Additional observations from a re-analysis of the deposited data

How the results depend on the processing

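For 2i against primed the number of members called, 20, stayed between 17 and 22 under every alternative run. For 50 µM against 2i it was 11, 16 with the replicate block and 5 to 13 when 1 library was left out, and between 10 and 15 otherwise. For 25 µM against 2i edgeR called 0 members, and 1 with RLE scaling, with no low-count filter, with DESeq2, in the fit of the 2 groups alone and without replicate 1 of every group, and 2 with the replicate block. Leaving out 1 library gave 0 to 0. For 50 µM against 25 µM it called 0, and 3 with no filter, 2 with DESeq2, 8 with the replicate block, 1 without replicate 1 of every group and 0 to 1 when 1 library was left out. The cause of these differences was not tested. Over all genes, 124 were called at 25 µM, 268 with no filter, 627 with the block and 29 to 101 without a library. The count at 50 µM against 2i was 1994, 3240 with the block and 1217 to 1668 without a library. Between the doses it was 153, 329 with no filter, 542 with the block, 238 without replicate 1 of every group and 38 to 203 without a library. The block changed no call of a member other than those given with its p. No fold change of a member that was called reversed its sign under any alternative run. With 3 libraries a group, genes of a few counts, such as Pfkfb4, Pdk2 and Pdk4, were measured too coarsely to show small differences.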

Other observations

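The citric acid cycle and the pentose phosphate pathway, which take carbon from glycolysis, were read from lists that hold none of the 35 genes. The list named for the citric acid cycle has 20 genes, all of which passed the filter on low counts. It includes the cytosolic Idh1, so it is wider than the cycle itself. Of the 20, 3 (15.0%) rose and 0 fell in 2i against primed, beside 20.0% higher and 20.4% lower of all genes. Idh1, the cytosolic isocitrate dehydrogenase, read 114, 119.8 and 114 CPM in primed and 295, 363 and 338 CPM in 2i (1.52 ± 0.09, adjusted p = 2.36e-11 by edgeR). Its groups were far apart, and it stood at 296, 301 and 282 CPM at 50 µM. Idh2, the mitochondrial NADP form (0.86 ± 0.10, adjusted p = 2.55e-07), and Sucla2, a succinyl-CoA ligase subunit (0.48 ± 0.09, adjusted p = 0.000132), rose as well. At 50 µM 1 of the 20 (5%) was lower than in 2i and 1 (5%) higher, beside 8.07% and 7.01% of all genes. With the replicate block 2 were lower and 4 higher, beside 12.4% and 12.1% of all genes. Sucla2 was lower than in 2i (−0.38 ± 0.09, adjusted p = 0.00563) and Sdhc, a membrane anchor of succinate dehydrogenase, was higher (0.40 ± 0.09, adjusted p = 0.00634), a call lost without 50 µM replicate 3 (adjusted p = 0.0725).

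Of 12 pentose phosphate genes, all tested, 3 (25.0%) were higher and 2 (16.7%) lower in 2i, beside 20.0% and 20.4% of all genes. Pgls, the lactonase of the oxidative branch, fell (−0.42 ± 0.10, adjusted p = 0.00213), and Prps2, which makes the ribose precursor of nucleotides, fell too (−0.45 ± 0.14, adjusted p = 0.0112), a call lost without primed replicate 3 (adjusted p = 0.0506). H6pd, the first enzyme of the oxidative branch in the endoplasmic reticulum (0.56 ± 0.19, adjusted p = 0.0214), and the scarce Tktl2, a transketolase-like gene (1.12 ± 0.40, adjusted p = 0.0306), were among the higher ones. Each of these 2 calls held in 2 of the 6 fits without a library, with an adjusted p of 0.00493 to 0.104 and 0.0135 to 0.202: H6pd without primed replicate 3 or 2i replicate 1, and Tktl2 without primed replicate 1 or 2i replicate 1. At 50 µM 2 of the 12 (16.7%) were higher than in 2i and 1 (8.33%) was lower, beside 7.01% and 8.07% of all genes. Without replicate 1 of every group 0 were higher and 2 lower, beside 710 and 1060 of 13287 genes. H6pd (0.63 ± 0.17, adjusted p = 0.0169; 0.0201 to 0.113 over the 6 fits without a library) and the scarce Rbks, ribokinase (1.44 ± 0.49, adjusted p = 0.05; 0.0373 to 0.264), were higher. H6pd was lost there without 2i replicate 1, 50 µM replicate 2 or 50 µM replicate 3, and Rbks, just under the threshold, without these or 2i replicate 3. Of the 7 other settings that gave Rbks an adjusted p, 1 called it, the replicate block (adjusted p = 0.0311). Prps1, a relative of Prps2, was lower than in 2i, with means of 360.0 and 249 CPM (−0.53 ± 0.10, adjusted p = 0.00118), a call that held in all 6 fits without a library.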
